A study of Mus musculus with 10 samples.

Results

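The 10 genes described here form the interleukin-10 axis of peritoneal lavage cells: the cytokine gene Il10, the receptor genes Il10ra and Il10rb, the signal transducer gene Stat3, 5 genes that IL-10 is known to induce through STAT3 (Socs3, Bcl3, Nfil3, Sbno2 and Etv3), and Maf, a regulator of Il10 itself. They were taken by symbol from the 34745 genes of the deposited count table, with earlier results of these data known. Every one was found there once, and all 10 passed the filter on low counts. The samples were lavage cells, the leukocytes and shed lining cells washed from the abdominal cavity, of mice with sepsis after cecal ligation and puncture. Of 10 libraries of polyadenylated RNA, 5 are labelled AX and 5 NC. The series sets amlexanox against vehicle, and AX is taken here for amlexanox and NC for vehicle; neither abbreviation is spelled out in the labels. Every group carried the same surgical injury, and strain, age, sex, dose and time after surgery are not given in the labels. Amlexanox is an anti-inflammatory drug; among its known targets are IKKε, TBK1 and phosphodiesterases.

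IL-10 is made by macrophages, neutrophils, B cells and other leukocytes late in an inflammatory response, and it limits that response. It binds a receptor of IL-10RA, the private ligand-binding chain, and IL-10RB, a chain shared with receptors for other cytokines. The kinases JAK1 and TYK2 then phosphorylate STAT3, which enters the nucleus and switches on repressors and feedback inhibitors. In macrophages the products of those genes lower the transcription of cytokines such as TNF and IL-12.

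Total counts per library ran from 10221170 to 13806885 and did not separate the groups (exact two-sided permutation p = 0.587, n = 5 each). Levels below are read counts scaled to a common library size (CPM) after TMM scaling. A value after ± is the SD (n = 5) unless marked otherwise, and each fold change sets AX over NC. Summed CPM of 12 marker lists of cell types overlapped between the groups (exact two-sided permutation p from 0.413 to 0.976, n = 5 each). The large peritoneal macrophage sum is mostly 1 gene, Saa3, which averaged 28754 of 30241 CPM in AX and 29315 of 31129 CPM in NC. The share of counts on mitochondrial genes was 12.1, 8.46, 18.6, 6.35 and 20.1% in AX 6 to AX 10, against 8.74, 4.47, 7.16, 12.6 and 15.7% in NC 1 to NC 5. Leukocyte markers of a peritoneal lavage were present: the neutrophil gene S100a9 averaged 4767 CPM in AX and 4050 CPM in NC, and the macrophage gene Adgre1 68.1 CPM in AX and 74.0 CPM in NC. Neither gene stands for the direction of its list. Of 21 tested neutrophil rows 7 were higher in AX, and their sum averaged 13788 CPM in AX and 14996 CPM in NC. Of 17 tested large peritoneal macrophage genes 12 were higher in AX. Of the genes that define resident large peritoneal macrophages, Gata6 averaged 29.2 CPM in AX and 16.1 CPM in NC, Timd4 3.96 and 3.73 CPM, and Vsig4 was at 0 in 6 of 10 libraries. Gata6 ran from 6.60 to 83.8 CPM over the libraries, and its highest value, in AX 6, raises the AX mean. AX 6 is also the library with the highest sum of mesothelial markers, given below. Which cells the Gata6 RNA came from was not tested. Libraries AX 6 and NC 1 stood apart from the other 8 by markers of non-leukocytes. The 15 mesothelial markers, genes of the peritoneal lining, summed to 2786 CPM in AX 6 and 1137 CPM in NC 1, against 128.2 to 399 CPM elsewhere. The 15 stromal markers summed to 3519 and 1583 CPM there, against 319.6 to 942 CPM elsewhere, and the 8 erythroid markers to 1825 and 845 CPM, against 88.6 to 584 CPM. Nothing in the labels says that each library came from a separate mouse, so p-values measure the spread between these libraries. In such bulk RNA, fewer cells of a type and less RNA per cell cannot be told apart.

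No gene of the axis passed the test between AX and NC, and both groups overlapped for each. Of the 10 genes 6 had a lower and 4 a higher fitted level in AX, and the median log2 fold change was -0.03, beside 0.02 over all 12264 genes tested. In edgeR's quasi-likelihood fit 0 of the 10 passed the threshold of 0.05 after Benjamini-Hochberg adjustment, and each adjusted p was 1.0. The background is the same: 0.0% of all genes tested passed, and the count was also 0 with DESeq2 and with limma-voom. At an unadjusted p under 0.05 there were 0 members, where 113 genes or 0.921% of all lay (193 genes with DESeq2, 132 with limma-voom). For 0 members the groups did not overlap, beside 0.139% of all genes. For 8 of the 10 genes the 95% interval of the log2 fold change lay between -1 and 1. The exceptions were Il10 and Maf.

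**Figure D1:**
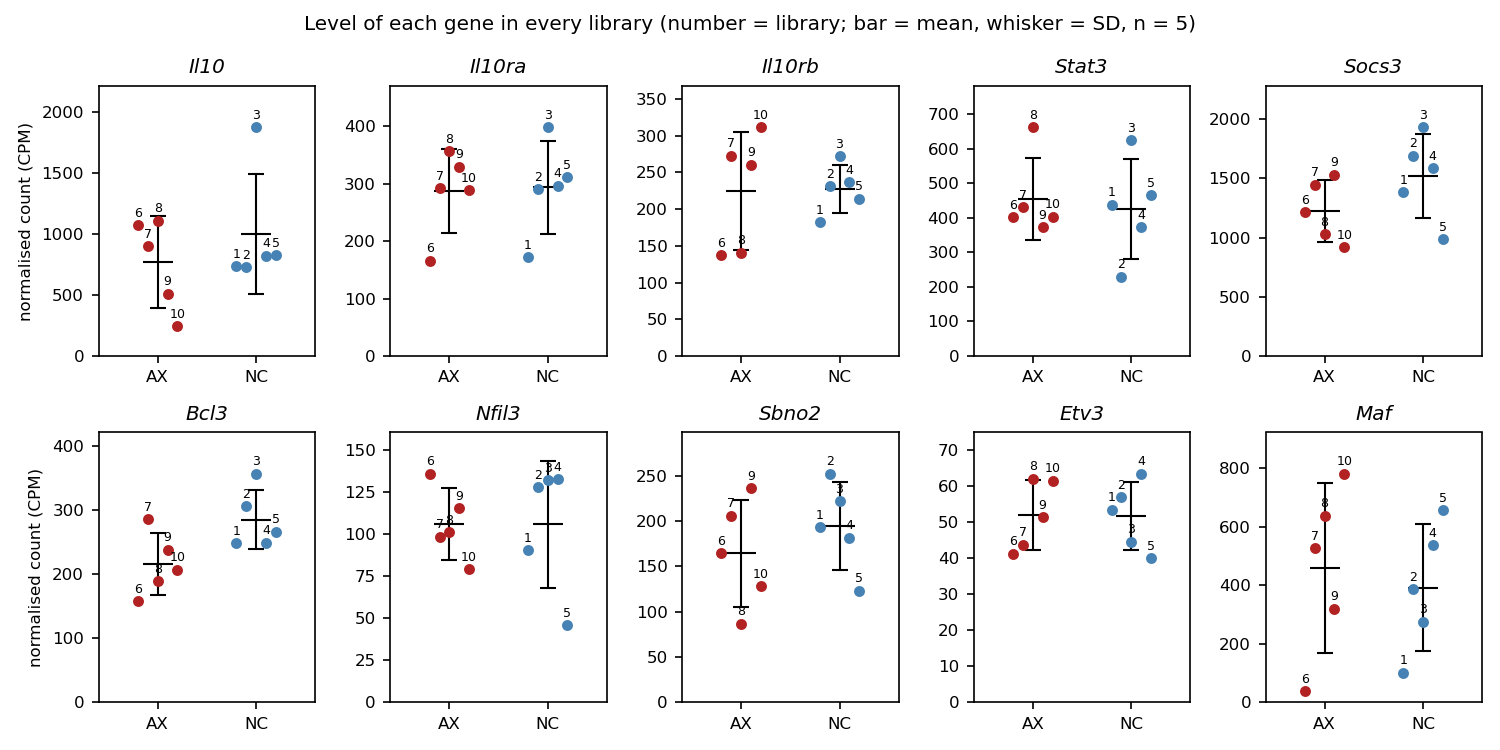
Normalised count (CPM, vertical axis from 0) of each of the 10 genes in every library, with AX at the left and NC at the right of each panel. Points are libraries with their number, bars are means and whiskers the SD (n = 5); in every panel the groups overlap, NC 3 stands alone for Il10, and AX 6 and NC 1 are lowest for Il10ra and Maf.

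The ligand gene was the most abundant of the axis per length and one of its 2 most variable members. Il10 (ENSMUSG00000016529, chromosome 1 from 131019845 to 131024974 of mm10, plus strand) encodes the anti-inflammatory cytokine IL-10. Its level in the AX libraries was 1072, 904, 1111, 511 and 243 CPM in AX 6 to AX 10. Among the NC libraries it was 734, 729, 1878, 823 and 828 CPM in NC 1 to NC 5. The AX libraries were spread over the whole range, while 4 of the 5 NC libraries lay between 729 and 828 CPM and NC 3 lay far above them. AX libraries lay on both sides of those 4: 3 were above them and AX 9 and AX 10 below. The means were 768 ± 378 CPM in the AX libraries, against 998 ± 494 CPM in NC, and the log2 fold change was -0.38 ± 0.42 (SE) with a 95% interval from -1.31 to 0.55. Permuting the libraries between groups gave p = 0.5 for the mean CPM (exact, two-sided, n = 5 each; the smallest p the design allows is 0.00794). Without NC 3 the NC mean was 778 ± 54.4 CPM (SD, n = 4) and the log2 fold change was -0.02. Leaving out NC 3 and AX 10 together, the libraries at the ends of the range, turned it to 0.21. Il10 overlaps no other annotated gene.

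On the FPKM scale, which divides by gene length and so allows levels of different genes to be compared, Il10 stood at 564 ± 250 in AX and 758 ± 305 in NC and ranked 66 of 34745 genes by its mean over all libraries. Socs3 came next in the axis, at 372 ± 115 FPKM in AX and 471 ± 111 FPKM in NC, and was below Il10 in 8 of 10 libraries. The exceptions were AX 9 and AX 10, where the ratio of Socs3 to Il10 FPKM was 1.19 and 1.505, against 0.368 to 0.925 in the others. Bcl3 followed at 59.2 ± 18.4 FPKM in AX and 79.9 ± 12.0 FPKM in NC, below Socs3 in all 10 libraries. Nfil3, Maf, Sbno2 and Il10rb had mean FPKM values over all libraries between 43.2 and 52.4, and their order changed from library to library. Nfil3 was above Maf in 6 of 10 libraries, Maf above Sbno2 in 5 and Sbno2 above Il10rb in 5, so these neighbours did not differ beyond their spread. Il10ra averaged 35.0 FPKM over all libraries and Stat3 27.6 FPKM. Etv3 was the least abundant, at 2.79 ± 0.501 FPKM in AX and 2.92 ± 0.687 FPKM in NC, below Stat3 in all 10 libraries.

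The receptor genes had nearly equal means in both groups, and each had a pair of low libraries. Il10ra (ENSMUSG00000032089, chromosome 9 from 45253837 to 45269149, minus strand) encodes the ligand-binding chain. It stood at 166, 293, 357, 330 and 288 CPM in AX 6 to AX 10. Its NC levels were 172, 291, 399, 297 and 312 CPM in NC 1 to NC 5. AX 6 and NC 1 were low, and the other 8 libraries lay between 288 and 399 CPM with both groups mixed. The log2 fold change was -0.04 ± 0.26 (SE), with a 95% interval from -0.60 to 0.52. Without AX 6 and NC 1 the means were 317 ± 32.5 CPM in the AX libraries, against 325 ± 50.2 CPM in NC (SD, n = 4 each). Il10rb (ENSMUSG00000022969, chromosome 16 from 91406164 to 91425834, plus strand) encodes the shared chain. It stood at 138, 273, 141, 261 and 312 CPM in AX 6 to AX 10, and its NC levels ran from 182 CPM in NC 1 to 272 CPM in NC 3. Here AX 6 and AX 8 were lower than every NC library, AX 10 was the highest of all, and AX 7 and AX 9 lay among or just above the NC values. The SD was 80.4 CPM in AX and 32.8 CPM in NC around means of 225 and 227 CPM, and the log2 fold change was -0.02 ± 0.25 (SE). The ratio of Il10rb to Il10ra FPKM was 1.26 ± 0.400 in AX and 1.26 ± 0.238 in NC (SD, n = 5 each), with its lowest value, 0.617, in AX 8. Gm21970, an annotated gene on the same strand that overlaps Il10rb, reached 2.16 CPM at most. Il10ra overlaps the pseudogene Gm20612 on the other strand and the microRNA gene Mir7086.

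Maf (ENSMUSG00000055435, chromosome 8 from 115682942 to 115707794, minus strand), which encodes c-Maf, a transcription factor known to bind and activate the Il10 promoter in macrophages and T cells, was the most variable member. It stood at 37.7, 525, 638, 320.2 and 780.4 CPM in AX 6 to AX 10. The NC libraries held 102, 387, 276, 537 and 655 CPM in NC 1 to NC 5. The lowest libraries were again AX 6 and NC 1, and the highest was AX 10, the library with the least Il10. The means were 460.3 ± 290 CPM in the AX libraries, against 391 ± 217 CPM in NC, with a log2 fold change of 0.23 ± 0.66 (SE) and a 95% interval from -1.21 to 1.68. Without AX 6 the log2 fold change was 0.53, and without AX 6 and NC 1 the means were 566 ± 194 CPM in the AX libraries, against 464 ± 167 CPM in NC (SD, n = 4 each).

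Il10ra and Maf were thus lowest in the same libraries, AX 6 and NC 1, those with the most mesothelial, stromal and erythroid marker RNA. Gut epithelial markers summed to 1595 CPM in AX 6 and 3521 CPM in NC 1, while the others had 33.5 to 334 CPM except NC 4, which had 1643 CPM and no low level of either gene. This placement is common: 1930 of the 12264 genes tested, or 15.7%, had AX 6 and NC 1 as their 2 lowest libraries. The part of other cells in the low Il10ra and Maf levels was not tested. Over all 10 libraries the log2 levels of Il10ra and Maf had Pearson's r = 0.791 (permutation p = 0.0194, adjusted p = 0.29 over 45 pairs of members) and Spearman's rho = 0.261 (permutation p = 0.472, adjusted p = 0.85). Without AX 6 and NC 1, which are also the 2 libraries farthest from the Il10ra median, r was -0.523, so that relation rests on them.

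**Figure D2:**
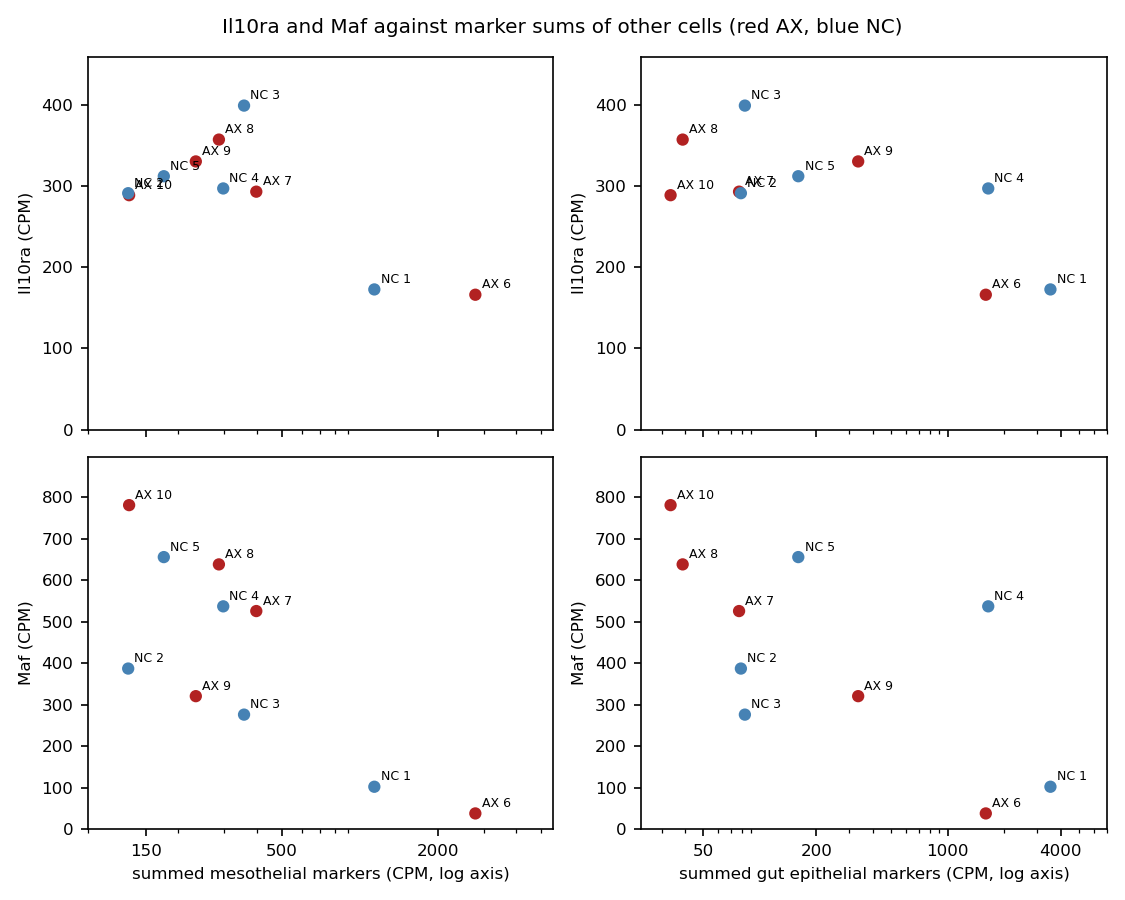
Il10ra (top) and Maf (bottom) in CPM on the vertical axis against the summed CPM of mesothelial (left) and gut epithelial markers (right) on a log axis, 1 point per library, red for AX and blue for NC. AX 6 and NC 1 lie at the lower right of the mesothelial panels, and NC 4 has 1643 CPM of gut epithelial markers without a low level of either gene.

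Stat3 (ENSMUSG00000004040, chromosome 11 from 100885098 to 100939540, minus strand), the transcription factor that carries the IL-10 signal, had a single high library in AX. It stood at 401, 430.4, 663, 374 and 403 CPM in AX 6 to AX 10. NC levels were 438, 229, 626, 373 and 465 CPM in NC 1 to NC 5. AX 8 and NC 3 were high and NC 2 was low, while the other 7 libraries of both groups lay between 373 and 465 CPM. The means were 454 ± 118 CPM in the AX libraries, against 426 ± 144 CPM in NC, with a log2 fold change of 0.09 ± 0.27 (SE). It became -0.09 without AX 8 and 0.27 without NC 3. Stat3 overlaps Stat5a on the other strand, a gene of at most 108 CPM here, and since the use of strand in counting is not given, reads in the overlap cannot be assigned with certainty.

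The induced genes Socs3, Bcl3 and Sbno2 had lower means in AX, and none of these differences passed the test. AX 8, AX 10 and NC 5, the libraries with the highest mitochondrial share (18.6, 20.1 and 15.7%), were the 3 lowest for both Socs3 and Sbno2. For Bcl3 the lowest were AX 6, AX 8 and AX 10. The part of RNA quality in these levels was not tested. Socs3 (ENSMUSG00000053113, chromosome 11 from 117966079 to 117970047, minus strand) encodes the suppressor of cytokine signalling that shuts off gp130 receptors. It was the most abundant member in CPM, at 1213, 1446, 1027, 1531 and 917 CPM in AX 6 to AX 10, against 1383, 1692, 1932, 1588 and 989 CPM in NC 1 to NC 5. All 5 AX libraries lay below the NC median of 1588 CPM, and 3 NC libraries lay above every AX library, but NC 5 was lower than 4 of the AX libraries. The means were 1227 ± 263 CPM in the AX libraries, against 1517 ± 355 CPM in NC, with a log2 fold change of -0.31 ± 0.23 (SE) and a 95% interval from -0.81 to 0.20. Permuting the libraries gave p = 0.183 for the mean CPM (exact, two-sided, n = 5 each).

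Bcl3 (ENSMUSG00000053175, chromosome 7 from 19808462 to 19822770, minus strand), a nuclear protein of the IκB family that restrains NF-κB at cytokine promoters, had the largest difference of the axis relative to its error. It stood at 158, 286, 189, 238 and 207 CPM in AX 6 to AX 10. NC libraries held 248, 306, 357, 249 and 267 CPM in NC 1 to NC 5. Of the 5 AX libraries 4 lay below every NC library, and AX 7 lay above 3 of them. The log2 fold change was -0.40 ± 0.19 (SE), with a 95% interval from -0.83 to 0.02, and the permutation test gave p = 0.0556 (exact, two-sided, n = 5 each). As for Il10rb, AX 6 and AX 8 were the lowest libraries, a placement shared by 3.45% of the genes tested. The antisense genes Gm16174 and Gm16175, which overlap Bcl3, reached 0.607 CPM at most.

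Sbno2 (ENSMUSG00000035673, chromosome 10 from 80057416 to 80102698, minus strand) encodes a helicase-like corepressor that IL-10 induces in macrophages. It stood at 165, 206, 86.9, 236 and 128 CPM in AX 6 to AX 10, against 194, 252, 222, 182 and 123 CPM in NC 1 to NC 5. AX 8 was lowest and NC 2 highest, with the other libraries of both groups mixed. The means were 164 ± 59.5 CPM in the AX libraries, against 195 ± 48.3 CPM in NC, with a log2 fold change of -0.24 ± 0.28 (SE).

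The repressor genes Nfil3 and Etv3 had nearly equal means in both groups. Nfil3 (ENSMUSG00000056749, chromosome 13 from 52967209 to 52981073, minus strand) encodes a leucine zipper repressor that acts on Il12b in mouse macrophages. It stood at 136, 98.5, 101, 115 and 79.1 CPM in AX 6 to AX 10, against 90.5, 128, 132, 132 and 45.9 CPM in NC 1 to NC 5. The means were 106 ± 21.1 CPM over the AX libraries and 106 ± 37.7 CPM over NC. NC 5 was the low library, and AX 6 the high one. Etv3 (ENSMUSG00000003382, chromosome 3 from 87525407 to 87540156, plus strand) encodes a repressor of the ETS family. Its highest library held 1.58 times the level of its lowest, the narrowest range of the 10 genes. It stood at 41.4, 43.8, 62.1, 51.5 and 61.6 CPM in AX 6 to AX 10, against 53.5, 57.0, 44.7, 63.5 and 40.1 CPM in NC 1 to NC 5. The means were 52.1 ± 9.69 CPM over the AX libraries and 51.8 ± 9.43 CPM over NC. The log2 fold change was 0.00 ± 0.28 (SE) for Nfil3 and 0.01 ± 0.19 (SE) for Etv3, with 95% intervals from -0.61 to 0.62 and from -0.40 to 0.42.

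**Figure D3:**
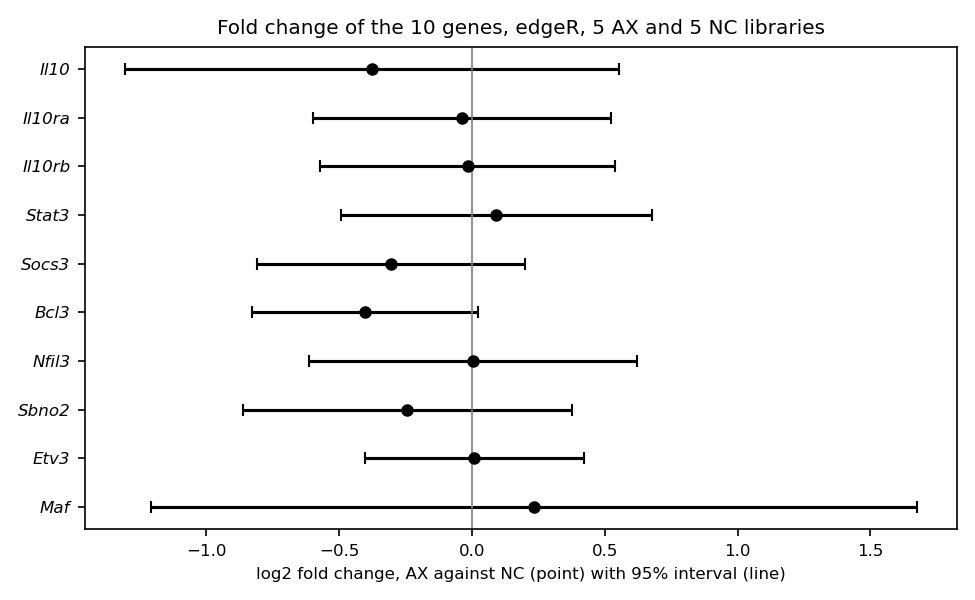
Log2 fold change of AX against NC (horizontal axis) for the 10 genes, with points for the edgeR estimate and lines for its 95% interval over 5 AX and 5 NC libraries. Every interval includes 0; Bcl3 reaches from -0.83 to 0.02, and Il10 and Maf have the widest intervals.

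Levels of the 10 genes were compared pairwise over the 10 libraries on the log2 scale. Of the 45 pairs of members, 26 had a positive r and none passed the adjusted threshold. The highest was Socs3 with Sbno2, at r = 0.859 (permutation p = 0.00138, adjusted p = 0.0621) and rho = 0.83 (permutation p = 0.00503, adjusted p = 0.226), and at r = 0.847 without AX 10 and NC 5, the 2 libraries farthest from the Socs3 median. The 3 libraries with the highest mitochondrial share are the lowest for both genes, and its part in this relation was not tested. Socs3 with Nfil3 had r = 0.688 (permutation p = 0.0188, adjusted p = 0.29) and rho = 0.636 (permutation p = 0.0543, adjusted p = 0.658), and r = 0.439 without those 2 libraries. Socs3 with Bcl3 had r = 0.658 (permutation p = 0.0385, adjusted p = 0.434) and rho = 0.661 (permutation p = 0.0438, adjusted p = 0.658), and r = 0.862 without those 2 libraries. Il10 with Socs3 had r = 0.472 (permutation p = 0.17) and rho = 0.152 (permutation p = 0.683), with adjusted p = 0.542 and 0.759 over the 9 relations of Il10. Without AX 10 and NC 3, the libraries farthest from the Il10 median, that r was -0.57, so the positive value rests on them. Il10 with Stat3 had r = 0.45 (permutation p = 0.185, adjusted p = 0.542) and rho = 0.624 (permutation p = 0.0605, adjusted p = 0.545), and r = 0.494 without AX 10 and NC 3. For the other 7 members r with Il10 lay between -0.44 and 0.319, with adjusted p from 0.542 to 0.791, and rho between -0.345 and 0.394, with adjusted p from 0.634 to 0.759 (permutation tests). In AX 8 Il10 was below NC 3 only, while Sbno2 was at its lowest and Socs3 was below 7 other libraries.

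Promoter sequence is shown for Socs3 and Sbno2, the pair with the highest r, and for Bcl3 beside them. STAT proteins are known to bind the palindrome TTCNNNGAA, which reads the same on both strands. The RefSeq table of promoters, 250 bases before to 50 bases after a start site in build GRCm38.p6, the same coordinates as mm10, has 8 entries for 6 of the 10 genes; Il10, Il10ra, Il10rb and Maf have none. The motif was found in 3 of these 8 windows, 1 of Socs3 and 2 of the 3 of Sbno2, and in 8.3% of all 32851 windows in the table. By gene it was found in 2 of the 6. The 8.3% counts windows, and the share by gene over the 27025 genes is not given here. The motif begins 154 bases before the RefSeq start site of Socs3, and 26 and 24 bases before those of Sbno2. The Socs3 window lies wholly within the Socs3 span given above, 117966079 to 117970047 on the minus strand. Its RefSeq start is thus not the start of the gene as counted, and the motif lies inside that span. The window of the second Sbno2 start likewise lies within the Sbno2 span. Capitals mark the motif in these sequences, printed 5′ to 3′ on the gene's strand:
Socs3 (chr11:117969317-117969616, minus strand): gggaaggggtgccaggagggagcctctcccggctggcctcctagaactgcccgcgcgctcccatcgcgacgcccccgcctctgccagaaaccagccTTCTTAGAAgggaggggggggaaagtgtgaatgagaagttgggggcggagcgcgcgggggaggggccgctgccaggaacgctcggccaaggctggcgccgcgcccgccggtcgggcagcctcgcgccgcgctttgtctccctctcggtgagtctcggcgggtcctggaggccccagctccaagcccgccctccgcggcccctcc
Sbno2, first start (chr10:80102653-80102952, minus strand): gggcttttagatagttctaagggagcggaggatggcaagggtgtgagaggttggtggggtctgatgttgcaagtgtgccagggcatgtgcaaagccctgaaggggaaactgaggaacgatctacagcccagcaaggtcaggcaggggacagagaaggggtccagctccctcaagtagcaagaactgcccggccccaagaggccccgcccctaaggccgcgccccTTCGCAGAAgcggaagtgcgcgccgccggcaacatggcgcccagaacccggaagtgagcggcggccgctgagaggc
Sbno2, second start (chr10:80101138-80101437, minus strand): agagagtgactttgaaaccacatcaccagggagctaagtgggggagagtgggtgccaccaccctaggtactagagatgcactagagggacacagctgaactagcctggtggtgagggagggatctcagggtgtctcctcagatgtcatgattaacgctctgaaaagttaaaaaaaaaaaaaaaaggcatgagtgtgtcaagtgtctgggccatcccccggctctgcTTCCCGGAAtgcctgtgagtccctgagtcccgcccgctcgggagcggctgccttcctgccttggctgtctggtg
Bcl3 (chr7:19822706-19823005, minus strand): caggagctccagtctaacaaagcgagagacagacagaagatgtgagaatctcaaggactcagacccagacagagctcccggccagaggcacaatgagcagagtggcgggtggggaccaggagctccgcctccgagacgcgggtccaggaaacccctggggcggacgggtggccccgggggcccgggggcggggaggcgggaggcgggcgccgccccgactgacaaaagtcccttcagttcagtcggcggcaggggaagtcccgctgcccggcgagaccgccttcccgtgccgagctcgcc
The window of Bcl3 holds no TTCNNNGAA, nor do those of Stat3, Nfil3 and Etv3. A match of letters is a description of the window and does not show binding, which was not measured.

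Of the genes compared, the one with the highest Pearson's r with Il10 was its neighbour on the chromosome. The comparison took 10483 other genes at a mean log2 CPM of at least 1. It left out Gm, Rik, pseudogene, mitochondrial, clone-type and immune receptor segment symbols, whose r was not examined. Mapkapk2 had r = 0.966 over the 10 libraries, with rho = 0.879. Mapkapk2 encodes MK2, a kinase downstream of p38 that is known to stabilise cytokine mRNAs. It lies 28726 bases beyond the end of Il10 (chromosome 1 from 131053700 to 131097826, minus strand), with no annotated gene of the table between them. Its level was 2227, 1729, 2042, 1440.1 and 983 CPM in AX 6 to AX 10, against 1708, 1784, 2676, 1519 and 1804 CPM in NC 1 to NC 5. NC 3 was highest and AX 10 lowest, as for Il10, but the range was narrower: the ratio of Il10 to Mapkapk2 CPM ran from 0.247 in AX 10 to 0.702 in NC 3. Without AX 10 and NC 3, r was 0.829. The log2 fold change of Mapkapk2 was -0.17 ± 0.26 (SE).

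The other genes near Il10 had lower values of r. Of 16 genes within 250 kb, 8 passed the filter on low counts. Il19, another cytokine of the IL-10 family 79730 bases before Il10, had r = 0.607 with Il10 and rho = 0.624, at 12.7 ± 17.5 CPM in the AX libraries, against 9.90 ± 4.09 CPM in NC. Values of r for Pigr, Fcmr, Dyrk3, Eif2d, Rassf5 and Ikbke lay between -0.281 and 0.421. Ikbke encodes IKKε, one of the kinases that amlexanox is known to inhibit, and stood at 702 ± 406 CPM in the AX libraries, against 795 ± 254 CPM in NC. These genes were looked up after the values of Mapkapk2 were seen, and the correlations describe 10 libraries that share depth and cell mixture.

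**Figure D4:**
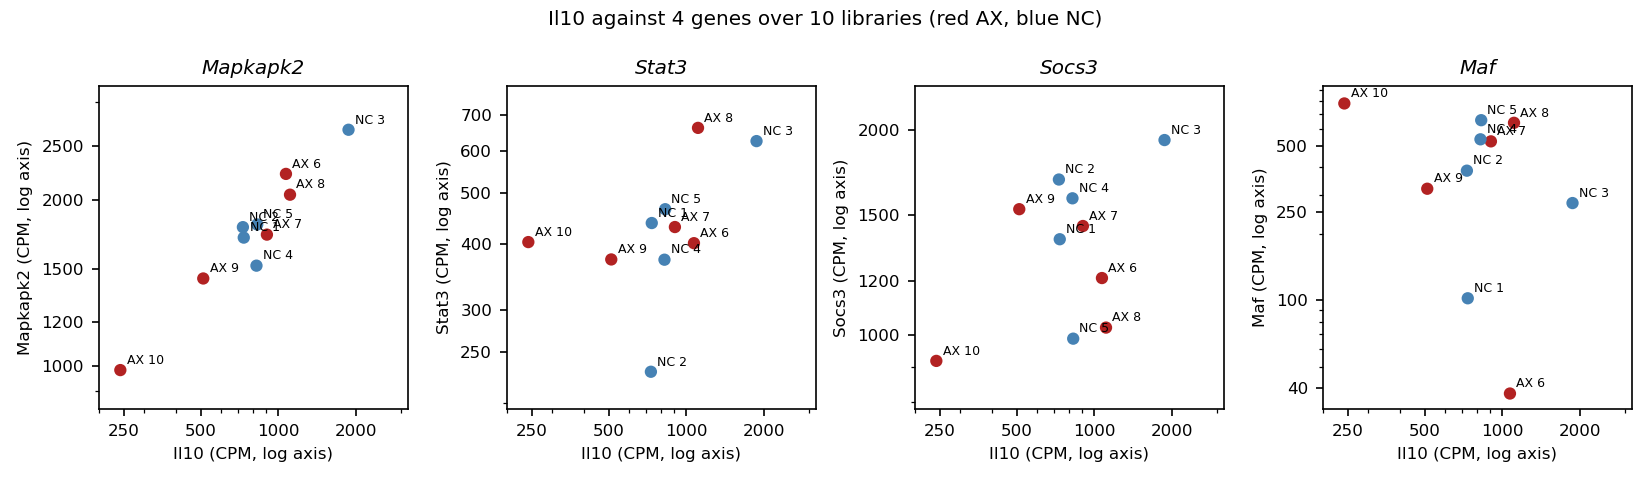
Il10 (horizontal axis) against Mapkapk2, Stat3, Socs3 and Maf (vertical axes) in CPM on log axes, 1 point per library, red for AX and blue for NC. Mapkapk2 follows Il10 over the whole range from AX 10 to NC 3, while Socs3 and Maf scatter.

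After Mapkapk2 came Wsb2 (r = 0.930), Rab20 (0.918), Rhoh (0.915) and Smox (0.908), over the same 10 libraries. Wsb2 encodes a SOCS box protein, Rab20 a small GTPase of phagosomes, Rhoh a GTPase of blood cells, and Smox spermine oxidase. Without AX 10 and NC 3 these values were 0.741, 0.576, 0.831 and 0.804, so Rhoh then stood level with Mapkapk2. Their rho was 0.927, 0.733, 0.879 and 0.952, so by rank Smox and Wsb2 were more like Il10 than Mapkapk2 was. Smox stood at 139.7 ± 61.9 CPM in the AX libraries, against 151 ± 70.4 CPM in NC, with 68.3 CPM in AX 10 and 273 CPM in NC 3. For Socs3 the 5 genes most alike were Ntng2 (r = 0.929), Rp2 (0.913), Tgfb1 (0.912), Sri (0.909) and Irg1 (0.902). Irg1, also called Acod1, makes itaconate in activated macrophages and stood at 1539 ± 374 CPM in the AX libraries, against 1853 ± 499 CPM in NC. Tgfb1, which encodes the anti-inflammatory cytokine TGF-β1, stood at 103 ± 34.2 CPM in the AX libraries, against 129 ± 23.8 CPM in NC.

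Il10 was also highest and lowest where some leukocyte markers were, while other lists differed. In NC 3 the conventional dendritic cell, B cell and NK cell sums were at their lowest, at 120, 95.6 and 8.84 CPM. The 20 neutrophil markers, in 21 rows of the table since Itgam has 2, summed to 8521 CPM in AX 10 and between 13766 and 16444 CPM in the remaining AX libraries, against 20249 CPM in NC 3 and between 9721 and 19741 CPM in the remaining NC libraries, and none was at 0 in any library. The more abundant Itgam row reached 3391 CPM. Over the 10 libraries the neutrophil sum had r = 0.642 and rho = 0.394 with Il10, as a description. The 11 mast cell and basophil markers summed to 161 CPM in AX 10 and between 412 and 759 CPM in the remaining AX libraries, against 1006 CPM in NC 3 and between 310 and 504 CPM in the remaining NC libraries. Their sum over libraries had r = 0.901 with Il10, as a description of 10 libraries. Hdc, which encodes histidine decarboxylase and is known to be induced in activated myeloid cells as well, made up 92.4% of that sum, from 145 CPM in AX 10 to 979 CPM in NC 3. The mast cell proteases were low: Cma1, Tpsb2 and Mcpt4 reached 22.5, 16.7 and 9.80 CPM at most, and Ms4a2, a chain of the IgE receptor, 0.313 CPM. Without Hdc the remaining 10 markers summed to 15.4 to 63.7 CPM in AX and 26.1 to 41.1 CPM in NC, with r = 0.400. With the neutrophil list as a covariate the log2 fold change of Il10 was -0.18, and with the macrophage list it was likewise -0.18. The part of these cells in the Il10 level was not tested.

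The kinases and related cytokines of the axis were measured from a list that leaves out the 10 members. Of 16 receptor kinases, STATs and other IL-10 family ligands and receptors, 12 passed the filter, 6 with a higher and 6 with a lower level in AX, a median log2 fold change of 0.00, and 0 called. Jak1, the kinase of IL-10RA, stood at 122 ± 35.1 CPM in the AX libraries, against 121 ± 20.8 CPM in NC, and Tyk2, the kinase of IL-10RB, at 27.2 ± 10.4 CPM in the AX libraries, against 29.1 ± 9.52 CPM in NC. Il22, which encodes a cytokine that uses IL-10RB, stood at 2.72 ± 2.26 CPM in the AX libraries, against 1.51 ± 1.55 CPM in NC, and Il22ra1, its private receptor chain, at 1.69 ± 2.08 CPM in the AX libraries, against 0.940 ± 0.801 CPM in NC. Ifnlr1, which pairs with IL-10RB to bind interferon λ, stood at 16.3 ± 8.94 CPM in the AX libraries, against 13.9 ± 4.48 CPM in NC. Their log2 fold changes were 0.84, 0.85 and 0.23, with standard errors of 0.93, 0.91 and 0.38. That of Il22 was 1.66 without NC 1 and 0.42 without AX 8.

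Other cytokines that act through STAT3 and their receptors had mostly higher values in AX, none of them called. Of 13 tested genes, 5 for cytokines and 8 for receptors, 11 were higher and 2 lower, with a median log2 fold change of 0.18, beside 0.02 over all genes, of which 6574 were higher and 5690 lower. Leaving out 1 library moved the median to between 0.061 (without NC 4) and 0.47 (without NC 3). Lifr, the receptor for leukemia inhibitory factor, stood at 5.12, 24.7, 22.4, 32.4 and 43.3 CPM in AX 6 to AX 10, against 8.01 to 18.3 CPM in NC. All AX libraries but AX 6 were above every NC library. Its log2 fold change was 1.10 ± 0.45 (SE), with an unadjusted p of 0.034 in edgeR and an adjusted p of 1.0. Lif, its ligand, stood at 105 CPM in AX 6 and between 5.27 and 14.2 CPM in the remaining AX libraries, against 31.4 CPM in NC 1 and between 3.84 and 14.9 CPM in the remaining NC libraries. AX 6 and NC 1, the libraries with most mesothelial markers, were thus the highest. Without AX 6, but with NC 1 kept in, the log2 fold change of Lif went from 1.19 to -0.38. The other libraries of both groups overlapped. Il27, a subunit of the cytokine IL-27, stood at 5.07 ± 2.15 CPM in the AX libraries, against 3.78 ± 0.713 CPM in NC.

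A wider list of 26 genes, for the most part induced by IL-10 or STAT3 in myeloid cells, had 14 higher and 12 lower members. Its median log2 fold change was 0.05, with 0 called. The list also holds Pias3, Ptpn1 and Ptpn2, which encode inhibitors of JAK and STAT signalling. Hmox1, the heme-degrading enzyme, stood at 1381 ± 367 CPM in the AX libraries, against 1711 ± 254 CPM in NC; its log2 fold change was -0.31 ± 0.22 (SE). Tnfrsf1b, a TNF receptor, stood at 1384 ± 145 CPM in the AX libraries, against 1624 ± 234 CPM in NC, with all 5 AX libraries below the NC median and a log2 fold change of -0.23 ± 0.17 (SE). Gadd45g, a stress-response gene, stood at 28.9 ± 9.79 CPM in the AX libraries, against 22.0 ± 4.41 CPM in NC.

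Regulators of Il10 transcription were likewise uncalled. Of 33 tested genes 19 had a higher and 14 a lower value, with a median log2 fold change of 0.08. Sik1, a salt-inducible kinase that cyclic AMP induces and that restrains the CREB coactivators of Il10, stood at 76.6, 53.1, 52.3, 48.2 and 63.2 CPM in AX 6 to AX 10, against 42.1 to 51.7 CPM in NC. All 5 AX libraries were above the NC median, 4 of them above every NC library, and the log2 fold change was 0.33 ± 0.16 (SE) with an unadjusted p of 0.0713 and an adjusted p of 1.0 in edgeR. Fos, an immediate early gene, stood at 1111 CPM in AX 6 and between 103 and 194 CPM in the remaining AX libraries, against 104 to 265 CPM in NC, and its log2 fold change of 1.10 was -0.09 without AX 6. Batf, a transcription factor of the AP-1 family, stood at 135 ± 40.3 CPM in the AX libraries, against 172 ± 27.0 CPM in NC; its log2 fold change was -0.35 ± 0.22 (SE).

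A list of genes that IL-10 restrains in mouse macrophages had 7 higher and 12 lower members of 19 tested. Its median log2 fold change was -0.03, with 0 called. The list also holds Irak3, which encodes an inhibitor of inflammatory signalling. Cxcl1, a neutrophil attractant, stood at 8088 CPM in AX 6 and between 169.8 and 566 CPM in the remaining AX libraries, against 2170.5 CPM in NC 1 and between 227 and 478 CPM in the remaining NC libraries. Ptgs2, which encodes an inducible cyclooxygenase, reached 10125 CPM for AX 6 and 2947 CPM for NC 1, while the other libraries held 178 to 990 CPM. Without AX 6, but with NC 1 kept in, the log2 fold changes of 1.45 for Cxcl1 and 1.36 for Ptgs2 were -0.80 and -0.69. Apart from AX 6 and NC 1, the groups overlapped for both genes. The highest libraries of Cxcl1 and Ptgs2 were those with most mesothelial markers, and the part of lining cells in these levels was not tested. Cxcl9, induced by interferon γ, stood at 3.65 ± 3.46 CPM in the AX libraries, against 1.78 ± 1.55 CPM in NC.

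**Figure D5:**
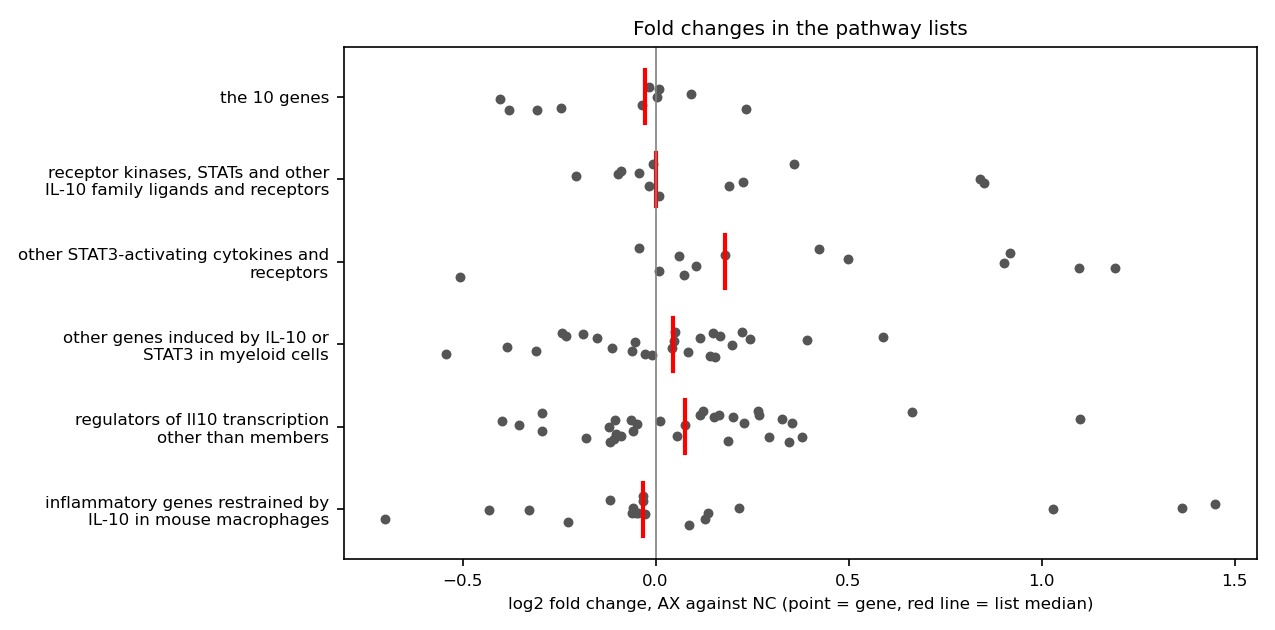
Log2 fold change of AX against NC (horizontal axis) for the 10 genes and for the tested genes of 5 related lists, 1 point per gene, with the list median as a red line. Medians lie between -0.03 and 0.18, and no gene was called.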

How the data were processed

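Lavage-cell RNA of 5 AX and 5 NC libraries was analysed. Per the labels' protocols, polyadenylated RNA was prepared with a VAHTS kit. Per the submitters' processing notes, reads were mapped to mm10 with HISAT2 2.0.4; for counter, annotation and strand setting, the sources used here say nothing. Each library's deposited columns are raw read counts per gene and FPKM values, scaled by the authors to gene length and library size. Counts were tested with edgeR 4.0.16 in R 4.3.3: genes with enough counts were kept by group, scaled by TMM to the total of kept genes, and fitted with a quasi-likelihood model of group, with Benjamini-Hochberg adjustment over all 12264 genes. CPM values use the same scaling. FPKM served only to compare levels between genes and as an alternative. The edgeR fit was tested on counts simulated with known fold changes, and the share recovered is not given here. Correlations between genes used log2 CPM, with 0.5 added to each count, and 100000 permutations. Single values used exact two-sided permutation tests. Marker p-values were unadjusted; the smallest adjusted p over the 12 lists was 0.961. Alternatives used DESeq2 1.42.0, limma 3.58.1, other scalings, filters, pseudocounts, covariates and left-out libraries. The 10 genes and all lists were chosen with earlier results of these data known. All 10 genes are named, with the 3 genes of smallest unadjusted p in each of 5 lists. Named too are the 5 genes of highest r with Il10 and with Socs3 among the genes compared. Jak1, Tyk2, the neighbours of Il10 and the mast cell markers were added after values were seen. Leaving out NC 3 and AX 10 together was also chosen after seeing the data. Depth was 10221170 to 13806885 counts a library. No pair of libraries agreed within sampling noise: over 45 pairs, the chi-square divided by its degrees of freedom was 41.8 to 327.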

Additional observations from a re-analysis of the deposited data

Results flagged for a closer look

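Of 20 groups of 5 libraries examined (10 genes in AX and in NC), 2 had a library far from the other 4, and chance gives about 1 in 20. Stat3 stood at 663 CPM in AX 8, above the other AX libraries at 374 to 430.4 CPM. Il10 stood at 1878 CPM in NC 3, above the other NC libraries at 729 to 828 CPM.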

How the results depend on the processing

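Over 24 alternatives the smallest adjusted p of any of the 10 genes was 0.999, so none was called under any of them. Socs3, Bcl3 and Sbno2 kept a negative log2 fold change in all 24, while 40 of 240 values of the 10 genes changed sign. With limma-voom and library quality weights the log2 fold change was 0.019 for Il10ra, 0.083 for Il10rb, -0.060 for Nfil3 and -0.097 for Etv3. With limma-voom it was -0.053 for Maf. Scaled to column totals it was -0.056 for Nfil3 and -0.066 for Etv3, and with no filter 0.0074 for Il10rb. On log2(FPKM + 1) it was -0.040 for Etv3 and -0.072 for Maf, and on log2(FPKM + 0.1) -0.050 and -0.11. With the neutrophil covariate it was 0.10 for Il10ra, 0.050 for Il10rb and -0.025 for Etv3, and with the macrophage covariate -0.024 for Nfil3 and -0.033 for Etv3. Without AX 6 and NC 1 it was 0.047 for Il10rb and -0.15 for Nfil3. Without NC 3 and AX 10 it was 0.21 for Il10, 0.095 for Il10ra, -0.11 for Etv3, -0.14 for Maf and -0.13 for Ifnlr1, and the median of the list of other STAT3-activating cytokines and receptors was 0.61. Without those 2 libraries r with Il10 was -0.18 for Il10ra, -0.57 for Socs3, -0.52 for Bcl3, -0.014 for Nfil3 and -0.68 for Sbno2, and on deviations from group means -0.0069 for Sbno2. Leaving out each library in turn gave log2 fold changes from -0.57 to -0.020 for Il10, -0.18 to 0.11 for Il10ra, -0.16 to 0.12 for Il10rb, -0.088 to 0.27 for Stat3, -0.43 to -0.20 for Socs3, -0.53 to -0.31 for Bcl3, -0.19 to 0.095 for Nfil3, -0.41 to -0.085 for Sbno2, -0.071 to 0.084 for Etv3 and -0.043 to 0.53 for Maf. It gave -0.18 to 1.25 for Il22ra1, -0.13 to 0.43 for Ifnlr1, -0.38 to 1.87 for Lif, -0.091 to 1.36 for Fos, -0.80 to 2.49 for Cxcl1 and -0.69 to 2.38 for Ptgs2. It gave 0.42 to 1.66 for Il22. List medians ran from -0.057 to 0.095 for receptor kinases and the IL-10 family, 0.061 to 0.47 for other STAT3-activating cytokines and receptors, -0.070 to 0.16 for other induced genes, -0.068 to 0.14 for regulators of Il10 and -0.26 to 0.12 for restrained genes. The number of genes called ranged from 0 to 1, the 1 being Rnf24 without NC 3 (log2 fold change -5.75, edgeR adjusted p = 0.0174). The number at an unadjusted p under 0.05 was 113, against 380 with quality weights, 433 without NC 1 and 381 without AX 6. The cause of these shifts was not tested. No paired analysis was possible because the AX and NC labels share no replicate numbers.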
